A study of Homo sapiens with 14 samples.

Results

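The genes described here encode the proteins of the mitochondrial ribosome, the particle inside mitochondria that translates the messenger RNAs of mitochondrial DNA. They were taken by name: every row whose symbol is MRPL or MRPS followed by a number and, at most, a letter A or B. The rule found 71 genes among the 12202 listed in either of the authors' deposited tables, and all 71 were listed in both. By symbol, 44 belong to the large subunit (MRPL) and 27 to the small subunit (MRPS). The rule uses the symbol and no measured value, but the set was proposed with earlier results of these data known. The samples were 14 bulk RNA libraries of teloHAEC, a telomerase-immortalised line of human aortic endothelial cells. The siRNA arm set 4 libraries of cells transfected with siRNA against CALCRL, which encodes the calcitonin receptor-like receptor, against 4 of cells given scrambled siRNA, all lysed at 24 hours. In the deletion arm, 3 libraries of cells electroporated with Cas9 and guides flanking a CALCRL enhancer were compared with 3 of cells given Cas9 and a guide against HPRT, 2 days later. Cells of both deletion-arm groups were thus given Cas9 and a guide, and they were collected as a treated population with no mention of isolated clones in the labels. The labels do not say that replicates came from separate cultures, so the p-values may measure technical spread only.

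The mitochondrial ribosome has a large subunit, which joins amino acids and holds the exit tunnel, and a small subunit, which holds the messenger RNA and its decoding site. Its proteins are all encoded in the nucleus, made in the cytosol and imported, while its ribosomal RNAs come from mitochondrial DNA. Its products are core subunits of the respiratory chain and of ATP synthase. Many of its proteins have a bacterial homologue, and others were added in the course of mitochondrial evolution. Endothelial cells draw much of their ATP from glycolysis, and their mitochondria are also known for roles in signalling.

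The values are those of the authors' DESeq2 comparison, with no value for a single library, so library depth is unknown and the spread between libraries is seen only through the standard error (SE) of each log2 fold change. A gene was called higher or lower where the authors' adjusted p-value was under 0.05. CALCRL itself stood at 34.0% of control under siRNA and at 36.2% of control after deletion, calculated from the authors' deposited tables. HPRT1, the target of the control guide, stood after deletion at 94.1% of its level in the HPRT-guide control, with -0.09 (SE 0.50, DESeq2 adjusted p = 0.931) in the authors' deposited table. Of 8 endothelial marker genes, 7 were listed in both tables, against 2 of 7 smooth muscle and fibroblast markers (ACTA2 and TAGLN) and 1 of 3 leukocyte markers (CD68), and PECAM1 was the endothelial marker not listed. Over all rows of the authors' deposited tables, the median SE was 0.17 under siRNA and 0.41 after deletion.

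After enhancer deletion, 25 of the 71 genes passed the authors' test, and they went in opposite directions: 14 were higher and 11 were lower than in the HPRT-guide control. The lower ones included MRPL34, MRPL49, MRPL10, MRPL13 and MRPL45, and the higher ones MRPL55, MRPL27, MRPS26, MRPL41 and MRPS34. Under CALCRL siRNA, none of the 71 passed. The share called after deletion was 35.2%, beside a background of 15.8% of all rows tested (7.4% called higher and 8.44% called lower). Mitochondrial ribosomal protein genes are well expressed, and the background was 21.3% among rows whose mean reached 100 normalised counts. Log2 fold changes of the 71 genes in the authors' deposited table ran from -3.03 to 1.56, with a median of 0.10 and an interquartile range of 1.39, against 0.0049 and 1.11 over all rows. An unadjusted p under 0.05 was found for 38 members, against 29.7% of all rows. As bulk RNA was measured, a loss of transcript in every cell and a loss in some of the cells cannot be told apart.

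Calls in the deletion arm depended on how the deposited statistic was read. When the Wald statistics were referred to a t distribution with 4 degrees of freedom, or divided by their robust standard deviation over all rows (1.88), 0 of the 11830 genes tested in the deletion arm were called, members included, while 25 members (t distribution) and 12 members (rescaled) still had an unadjusted p under 0.05. When the trend of fold change on GC content was removed, 17 members were called, 6 higher and 11 lower, in place of 14 and 11. The background under that setting was 12.1% of all rows tested.

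**Figure D1:**
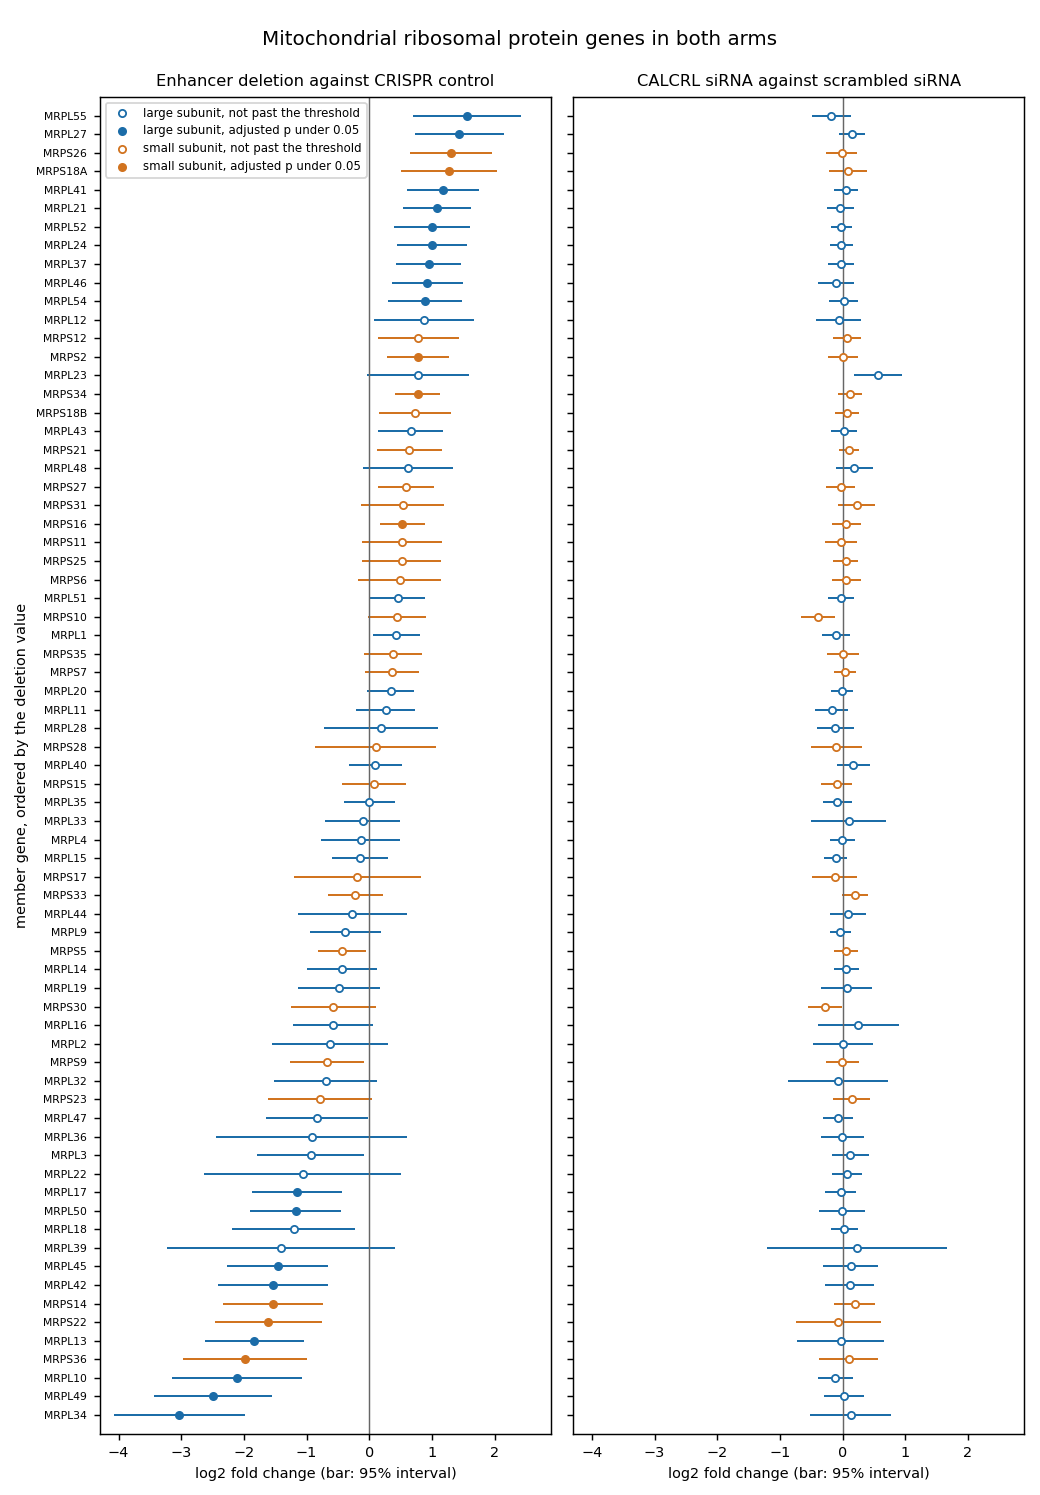
Log2 fold change (horizontal axis) of the 71 genes in each arm, ordered by their value after enhancer deletion, with bars for the 95% interval, colour for the subunit and filled points for genes past the adjusted p threshold of 0.05. In the deletion arm 11 genes are called lower and 14 higher, and in the siRNA arm none is called and the points gather around 0.

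In the large subunit, 8 genes were lower after deletion. MRPL34, a protein conserved from bacteria, had the lowest value: the group means implied by the fold change were 429 normalised counts in the control and 52.6 after deletion, or 12.3% of control (95% interval 5.96 to 25.2). Its log2 fold change in the authors' deposited table was -3.03 (SE 0.53, DESeq2 adjusted p = 3.05e-06). The gene lies on chromosome 19 at 17292609 to 17306843 on the plus strand (GRCh38, GENCODE release 29). MRPL49, a subunit with no bacterial homologue on chromosome 11 (65122183 to 65127371, plus strand), went from an implied mean of 230 to 40.7 normalised counts. The authors' deposited table lists it at -2.50 (SE 0.48, adjusted p = 3.11e-05). The 95% intervals of MRPL34 and MRPL49 end under the control level, but they come from the same statistic as the calls. With the t distribution both had an adjusted p of 0.357, and neither was called after rescaling.

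MRPL10 belongs to the ribosomal stalk, the flexible arm that recruits translation factors, and its implied mean went from 233 to 53.9 normalised counts. The authors' deposited table gives it a log2 fold change of -2.11 (SE 0.53, adjusted p = 0.00214). MRPL12, the stalk protein that MRPL10 anchors, was not called, with 0.87 (SE 0.41, adjusted p = 0.128) in the authors' deposited table. The values of these partner proteins thus had opposite signs, but that of MRPL12 was small once the trend on GC content was removed (0.19, against -2.18 for MRPL10). MRPL13, a core protein of the large subunit, stood at 28.0% of control (95% interval 16.2 to 48.5), with -1.84 (SE 0.40, adjusted p = 0.000387) in the authors' deposited table. MRPL45, which ties the ribosome to the inner membrane beside the exit tunnel, stood at 36.3% of control (20.8 to 63.4), with -1.46 (SE 0.41, adjusted p = 0.00687) in the authors' deposited table. MRPL42, MRPL50 and MRPL17 were also lower, at 34.5%, 44.4% and 45.0% of control. MRPL17 was the most abundant of the lower genes, with an implied control mean of 592 normalised counts.

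The small subunit had 3 lower genes, and their levels after deletion lay between 25.2% and 34.5% of control. MRPS36 was lowest, with -1.99 (SE 0.50, adjusted p = 0.00258) in the authors' deposited table. Despite its symbol, this protein is now known as a component of the 2-oxoglutarate dehydrogenase complex and not of the ribosome. MRPS22, mutated in inherited disorders of mitochondrial translation, stood at 32.8% of control (18.2 to 59.2). MRPS14, a conserved protein of the small subunit head, stood at 34.5% of control (19.9 to 59.6). In the authors' deposited table their log2 fold changes were -1.61 (SE 0.43, adjusted p = 0.00496) for MRPS22 and -1.54 (SE 0.40, adjusted p = 0.00371) for MRPS14. At their 3′ ends MRPS14, MRPS22, MRPL34 and MRPL49 are overlapped on the opposite strand by CACYBP, COPB2, ABHD8 and SYVN1, and as the counting strand is not given, their counts are uncertain.

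Of the large subunit genes, 9 were higher after deletion. MRPL55, on chromosome 1 (228106679 to 228109312, minus strand), went from an implied mean of 171 to 502 normalised counts, a 2.94-fold level (95% interval 1.62 to 5.34). Its log2 fold change in the authors' deposited table was 1.56 (SE 0.44, adjusted p = 0.00719). MRPL27, which reaches toward the peptidyl transferase centre where peptide bonds are made, stood at 2.70-fold (1.65 to 4.41), with 1.43 (SE 0.36, adjusted p = 0.00238) in the authors' deposited table. MRPL41 stood at 2.27-fold (1.52 to 3.38), with implied means of 614 in the control and 1394 after deletion. MRPL21 was 2.11-fold and MRPL52 2.0-fold of control, and MRPL52 had the highest implied control mean of the called genes, 1161 normalised counts. MRPL24, MRPL37, MRPL46 and MRPL54 lay between 1.84-fold and 2.0-fold. Among the called genes of both subunits, the median log2 fold change was 1.00 for the 14 higher genes and -1.61 for the 11 lower ones. Both medians are over genes picked by the test, so they depend on each gene's SE. The median of the mean counts also differed, at 168 for the lower genes and 573 for the higher ones.

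In the small subunit, 5 genes were higher. MRPS26 went from an implied mean of 289 to 710 normalised counts (2.46-fold, 95% interval 1.56 to 3.87), with 1.30 (SE 0.33, adjusted p = 0.00297) in the authors' deposited table. MRPS18A, which sits in the large subunit despite its symbol, went from 91.4 to 220 normalised counts. MRPS34, needed for a stable small subunit, had the lowest adjusted p of the higher genes: the authors' deposited table gives 0.77 (SE 0.18, adjusted p = 0.00115), and the implied means were 636 and 1086 normalised counts. It lies on chromosome 16 at 1771890 to 1773155 on the minus strand. MRPS2, a conserved protein near the messenger RNA exit, stood at 1.71-fold (1.22 to 2.40). MRPS16, another conserved protein of the small subunit, showed the smallest called change, 1.44-fold (1.12 to 1.84). Of the 14 higher genes, 4 are overlapped at their 3′ ends by a protein-coding gene, so their counts are uncertain too: MRPS16 by DNAJC9 and MRPL46 by the gene model AC013489.1 on the same strand, and MRPL37 by SSBP3 and MRPS18A by RSPH9 on the opposite one.

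**Figure D2:**
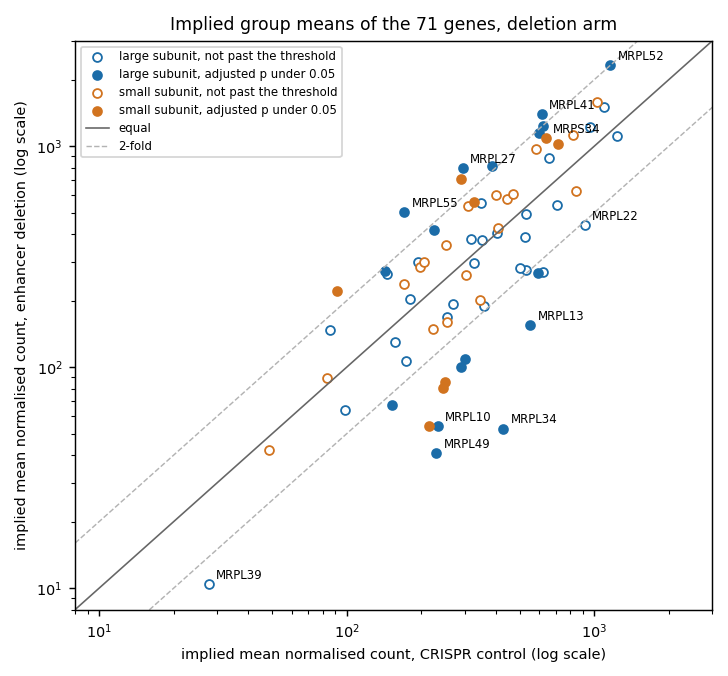
Mean normalised counts of each gene in the CRISPR control (horizontal, log axis) and after enhancer deletion (vertical, log axis), as implied by the mean and the fold change, with a line of equal levels, dashed lines of 2-fold change and filled points for called genes. MRPL34 (429 and 52.6) and MRPL49 (230 and 40.7) lie farthest under the line, and MRPL55 (171 and 502) lies farthest above it.

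The other 46 genes were not called after deletion, with log2 fold changes from -1.41 to 0.87. Among those with a known place or role, MRPS12, at the decoding centre, had 0.78 (SE 0.33, adjusted p = 0.0861) and MRPS18B, a small subunit protein, had 0.73 (SE 0.29, adjusted p = 0.0657) in the authors' deposited table. MRPS21, another small subunit protein, had 0.64 (SE 0.26, DESeq2 adjusted p = 0.0779). On the low side, MRPL18 was nearest the threshold, with -1.21 (SE 0.50, DESeq2 adjusted p = 0.0760) in the authors' deposited table. MRPL32, whose maturation by the m-AAA protease is a step of ribosome assembly, had -0.70 (SE 0.42, adjusted p = 0.258), and MRPS30 had -0.58 (SE 0.35, adjusted p = 0.254), again in the authors' deposited table. Values for 2 uncalled genes were too imprecise to place: MRPL39 (-1.41, SE 0.93, mean of 19.1 normalised counts) and MRPL22 (-1.06, SE 0.80), both from the authors' deposited table. MRPL36, a short protein of the large subunit, had -0.92 with an SE of 0.78 in the authors' deposited table.

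The subunits were then compared. In the large subunit 17 of 44 genes were called after deletion (38.6%; 9 higher, 8 lower), and in the small subunit 8 of 27 (29.6%; 5 higher, 3 lower). The median log2 fold change in the authors' deposited table was -0.14 for the large subunit and 0.45 for the small one. The large subunit's median changed sign when genes with an unusually large SE in either arm were left out. Without those over 2 times the median SE of rows with a like mean, the medians were 0.14 and 0.46. Over both subunits, 7 of the genes left out had the large SE under siRNA. All 7 were below 0 after deletion, so the filter itself took out low values. Values below 0 were seen for 25 of 44 large subunit genes and for 9 of 27 small subunit genes. When MRPS18A and MRPS30 were counted with the large subunit, where they sit in the structure, and MRPS36 was left out, the counts became 18 of 46 and 6 of 24, with medians of -0.14 and 0.46. The difference between the subunits was not tested, since genes are not replicates. Genes were also classed as with or without a bacterial homologue, by their universal ribosomal protein names only. MRPS18A and MRPS18B fell in the class without one by name. Among genes classed as having a homologue 11 of 43 were called (25.6%, with 6 higher and 5 lower). Among those classed as having none 13 of 27 were called (48.1%, with 8 higher and 5 lower), beside 15.8% of all rows. With the GC trend removed, 3 higher and 6 lower were called among the 43, and 3 higher and 4 lower among the 27. The background was then 12.1% of all rows. The difference between these classes was not tested.

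**Figure D3:**
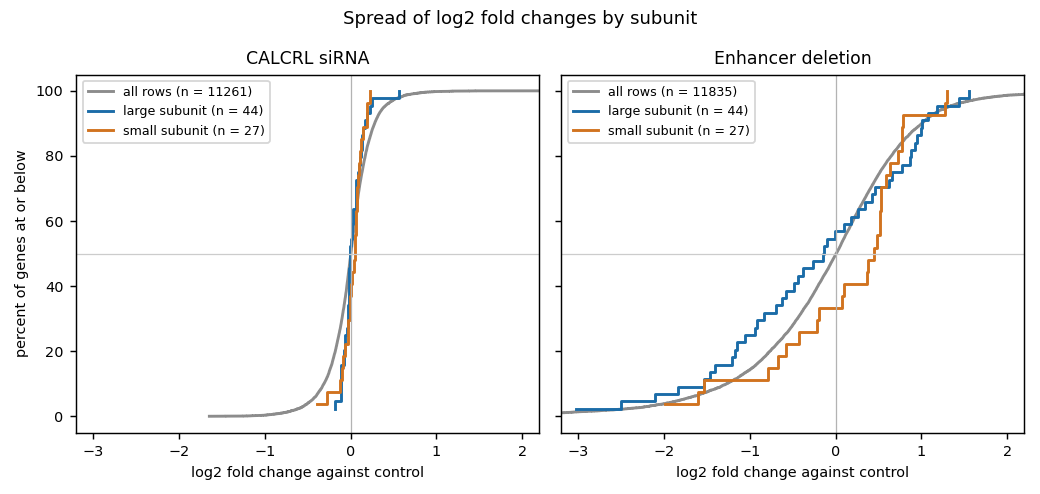
Cumulative percent of genes (vertical) at or below each log2 fold change (horizontal) for the 44 large subunit genes, the 27 small subunit genes and all rows, in the siRNA arm (left) and the deletion arm (right); the horizontal axis leaves out the tails of all rows. After deletion the median lies at -0.14 for the large subunit (0.14 without genes of unusually large SE in either arm) and at 0.45 for the small one. In the siRNA arm both lie near 0.

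Promoters of genes called in each direction are shown because nuclear genes of mitochondrial proteins are known to share promoter motifs. RefSeq (GRCh38.p14) gave a window of 250 bases before to 50 bases after the start for 62 of the 71 genes. In the windows below, written 5′ to 3′ on the strand of the gene, capitals mark the matched motif: the nuclear respiratory factor motif (GCGCA, any base, then GCGC) in MRPL17 (chr11:6683291-6683590, minus strand) and MRPL45 (chr17:38296918-38297217, plus strand), both lower after deletion; the YY1 motif AAGATGGCG in MRPL46 (chr15:88467339-88467638, minus strand), higher; and the ETS family motif CCGGAAG, in either orientation, in MRPS34 (chr16:1773085-1773384, minus strand) and MRPL27 (chr17:50373135-50373434, minus strand), also higher.
MRPL17: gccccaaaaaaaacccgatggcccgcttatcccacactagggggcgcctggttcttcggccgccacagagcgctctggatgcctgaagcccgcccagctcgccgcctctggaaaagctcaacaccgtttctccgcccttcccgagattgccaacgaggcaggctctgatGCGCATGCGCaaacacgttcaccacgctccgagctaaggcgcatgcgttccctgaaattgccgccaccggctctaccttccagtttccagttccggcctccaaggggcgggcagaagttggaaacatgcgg
MRPL45: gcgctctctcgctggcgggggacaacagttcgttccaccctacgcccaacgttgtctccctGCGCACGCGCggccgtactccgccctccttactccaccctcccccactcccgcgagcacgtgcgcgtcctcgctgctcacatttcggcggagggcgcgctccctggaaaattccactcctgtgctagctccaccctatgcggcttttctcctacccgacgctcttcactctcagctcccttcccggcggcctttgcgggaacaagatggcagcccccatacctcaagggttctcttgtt
MRPL46: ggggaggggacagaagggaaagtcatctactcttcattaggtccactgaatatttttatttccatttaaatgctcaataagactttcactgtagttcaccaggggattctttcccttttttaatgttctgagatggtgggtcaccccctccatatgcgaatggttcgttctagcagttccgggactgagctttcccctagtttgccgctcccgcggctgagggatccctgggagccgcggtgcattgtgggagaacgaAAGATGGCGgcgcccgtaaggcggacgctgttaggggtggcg
MRPS34: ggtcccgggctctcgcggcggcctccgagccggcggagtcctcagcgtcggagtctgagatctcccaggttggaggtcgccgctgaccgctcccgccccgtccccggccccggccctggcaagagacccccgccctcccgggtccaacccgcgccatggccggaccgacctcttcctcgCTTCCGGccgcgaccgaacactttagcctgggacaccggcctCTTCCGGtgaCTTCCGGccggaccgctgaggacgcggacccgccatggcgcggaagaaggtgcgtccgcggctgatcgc
MRPL27: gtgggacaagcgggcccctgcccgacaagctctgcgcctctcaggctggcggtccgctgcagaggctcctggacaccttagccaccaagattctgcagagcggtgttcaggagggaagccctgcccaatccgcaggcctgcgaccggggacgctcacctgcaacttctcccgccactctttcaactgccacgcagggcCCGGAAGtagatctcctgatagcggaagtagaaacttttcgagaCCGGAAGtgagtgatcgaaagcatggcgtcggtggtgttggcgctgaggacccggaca

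The ETS family motif CCGGAAG, searched on both strands, was held by 24 of the 62 windows. It was held by 20.4% of the windows of genes listed in either arm and by 10.7% of all RefSeq windows of that length. By call, it was held by 7 of 13 windows of higher genes, 16 of 41 of uncalled genes and 1 of 8 of lower genes. The YY1 motif AAGATGGCG was held by 11 of 62 windows, against 4.36% of windows of genes listed in either arm. It was in 3 of 13 windows of higher, 6 of 41 of uncalled and 2 of 8 of lower genes. The nuclear respiratory factor motif was held by 6 of 62 windows, against 12.4% of windows of genes listed in either arm. It was in 0 of 13 windows of higher, 4 of 41 of uncalled and 2 of 8 of lower genes. The heat shock element core GAANNTTC was held by 6 of 62 windows (4.53% of windows of genes listed in either arm). For TATAAA the count was 2 of 62 (5.11%) and for CCAAT 19 of 62 (37.0%). The motifs were searched as exact letters, matches of different motifs may overlap, and a match is a description of the sequence only.

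Under CALCRL siRNA, the same 71 genes lay close to the scrambled control. In the siRNA arm 0 of 71 were called by the authors' DESeq2 Wald test, beside a background of 3.46% of all rows (1.05% higher, 2.42% lower), and 3 had an unadjusted p under 0.05, beside a background of 12%. The counts with an unadjusted p under 0.05 were 2 with a t distribution of 6 degrees of freedom and 2 after division by the robust standard deviation, and neither setting called a member. Log2 fold changes ran from -0.39 to 0.56 in the authors' deposited table, and 65 of 71 lay within 0.2 of 0. The median was -0.003 for the large subunit and 0.05 for the small one. For 70 of 71 genes the 95% interval stayed within 1 log2 unit of 0, MRPL39 being the exception, so changes of the size seen for MRPL34 or MRPL49 after deletion lie outside those genes' siRNA intervals.

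The genes with an unadjusted p under 0.05 in the siRNA arm were MRPL23, MRPS10 and MRPS30. MRPL23, a large subunit protein of the exit tunnel region, had 0.56 (SE 0.19, adjusted p = 0.0834) in the authors' deposited table, with implied means of 58.2 and 86.0 normalised counts. MRPS10, a protein of the small subunit head, had -0.39 (SE 0.14, adjusted p = 0.111), and MRPS30 had -0.28 (SE 0.14, adjusted p = 0.398), again in the authors' deposited table. The next by Wald statistic in the authors' deposited table were MRPL11 (-0.18), MRPL15 (-0.11) and MRPL55 (-0.18) on the low side, and MRPS33 (0.19), MRPS31 (0.22), MRPL27 (0.15) and MRPS21 (0.11) on the high side. Most of the genes called after deletion had siRNA values near 0: those of the 11 lower genes lay between -0.12 and 0.19, and those of the 14 higher genes between -0.18 and 0.15, in the authors' deposited table.

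To compare the arms directly, each gene's log2 fold changes were subtracted and the deposited SEs combined, as the arms share no libraries. This difference passed an adjusted p of 0.05 (normal reference, Benjamini-Hochberg over 10891 genes) for 24 of the 71 genes, beside a background of 13.7%. The siRNA value was the higher one for 11 of them (background 7.22%) and the lower one for 13 (background 6.49%). For MRPL34 the siRNA minus deletion difference was 3.16 (SE 0.62, adjusted p = 9.36e-05), for MRPL49 it was 2.52 (SE 0.51, adjusted p = 0.000131), and for MRPL55 it was -1.74 (SE 0.47, adjusted p = 0.00577). Of the 24, 23 were also called in the deletion arm; MRPS10 was called in neither arm, with a difference of -0.84 (SE 0.28, adjusted p = 0.0255). MRPL54 and MRPS16 were called after deletion, but their differences had adjusted p-values of 0.0522 and 0.133. With the t distribution or after division by the robust standard deviation 0 members were called, with 22 and 9 at an unadjusted p under 0.05. Once the GC trend was removed 13 members were called, beside a background of 11.2%.

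GC content of the annotated transcript end differed with the direction of the call. For each gene it was taken from the transcript with the longest annotated 3′ UTR. That end may not be the one this 3′ method read, and for MRPL42 that UTR was 14995 bases long. Over the last 500 bases of the transcript, the median GC content was 40.4% for the 11 lower genes, 43.5% for the 46 uncalled genes and 55.5% for the 14 higher genes, against 41.6% over all rows. Of the 22 genes above 50% GC, 12 were higher and 1, MRPL34, was lower. Of the 21 genes under 40% GC, 1 (MRPL46) was higher and 5 were lower. All rows of the deletion table went the same way, with 16.3% called higher and 4.32% lower above 50% GC, and 2.5% and 11.1% under 40% GC. Across the 71 genes Spearman's rho between GC content and log2 fold change was 0.51 after deletion and 0.0017 under siRNA, over genes that share the same libraries. With the GC trend removed, 10 of the 11 lower genes were still called, MRPL50 being the exception (-0.95, adjusted p = 0.0677; 0.0132 to 0.975 over its alternatives), but only 4 of the 14 higher genes: MRPL27, MRPL46, MRPS26 and MRPS16. Of the higher genes no longer called, MRPL55 then had 0.91, MRPL41 0.46 and MRPS34 0.27. MRPS5 (-0.71), MRPL1 (0.65) and MRPS27 (0.75) were newly called. The part of GC content in these results was not tested beyond this fit.

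Spread in the siRNA arm also differed between the groups of genes. The SE of each gene in the siRNA table was divided by the median SE of the rows nearest to it in mean count. This ratio had a median of 1.43 (0.975 to 3.00) for the 11 genes lower after deletion, 0.997 for the uncalled genes and 0.962 (0.818 to 1.16) for the 14 higher ones. It was above 2 for 7 genes, MRPL34, MRPL13, MRPS22, MRPL16, MRPL32, MRPL33 and MRPL39, and the deletion value of each was below 0, with 3 called lower. Over all rows with a ratio above 2 and a deletion value, 207 of 214 were below 0 and 67.3% were called lower. When rows with a ratio above 2 in either arm were left out, an alternative chosen after seeing the data, 22 of 62 members were called after deletion, 14 higher and 8 lower. The background under that filter was 14.4% of all rows. The part of this spread in the deletion calls was not tested.

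**Figure D4:**
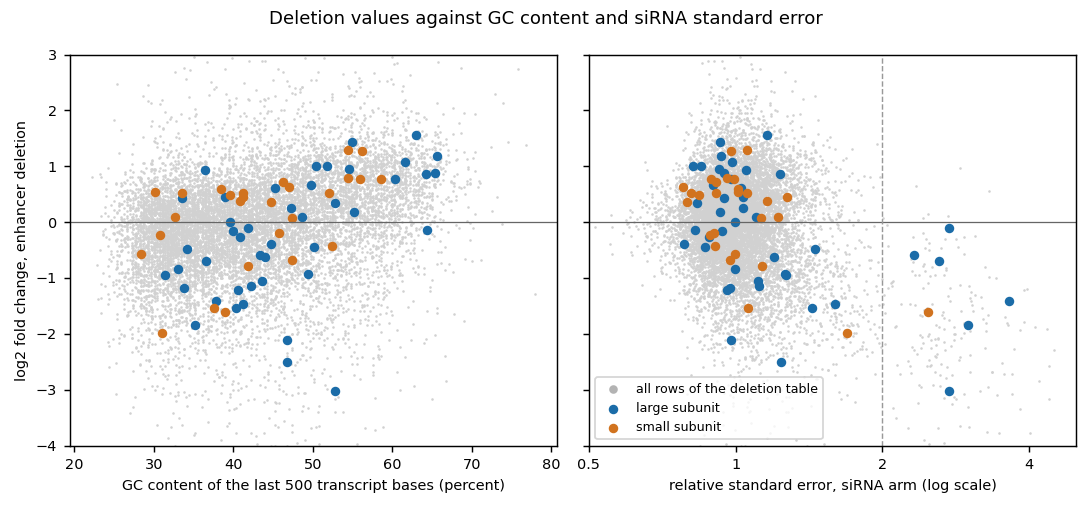
Log2 fold change after deletion against GC content of the last 500 transcript bases (left) and against the relative SE in the siRNA table (right), with the 71 genes in colour by subunit and all rows in grey; the axes leave out some grey points. Most points above 50% GC lie above 0, and the 7 genes with a relative SE above 2, right of the dashed line, all lie under 0.

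Many of these genes begin next to another gene that is read in the opposite direction, and 21 such pairs, with starts at most 1000 bases apart or overlapping by up to 500, had both genes in the deletion table (the pair MRPL46 and MRPS11 counted from each side). The mitochondrial ribosomal gene was called in 10 pairs and its neighbour in 6, beside a background of 15.8% of all rows. The values had the same sign in 11 of 21. Both were called in 1 pair, in opposite directions: MRPL49 at -2.50 (SE 0.48) and FAU, which encodes a protein of the cytosolic small subunit, at 0.45 (SE 0.17, adjusted p = 0.0497) in the authors' deposited table. MRPS12 (0.78) was not called, while its neighbour SARS2, the mitochondrial seryl-tRNA synthetase, had 2.82 (SE 0.69, adjusted p = 0.0016) in the authors' deposited table. MRPL47 (-0.83) was not called, while its neighbour NDUFB5, a subunit of respiratory complex I, had -1.45 (SE 0.51, adjusted p = 0.0353) in the authors' deposited table. NDUFS6, another complex I subunit, was higher (0.95, SE 0.32, adjusted p = 0.0254) beside an uncalled MRPL36, and NCAPD2, a condensin subunit, was lower (-0.79, SE 0.28, adjusted p = 0.0337) beside an uncalled MRPL51, in the authors' deposited table. MRPL13 and MTBP start 2 bases apart, and MTBP had 0.56 with an SE of 0.68 in the authors' deposited table.

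**Figure D5:**
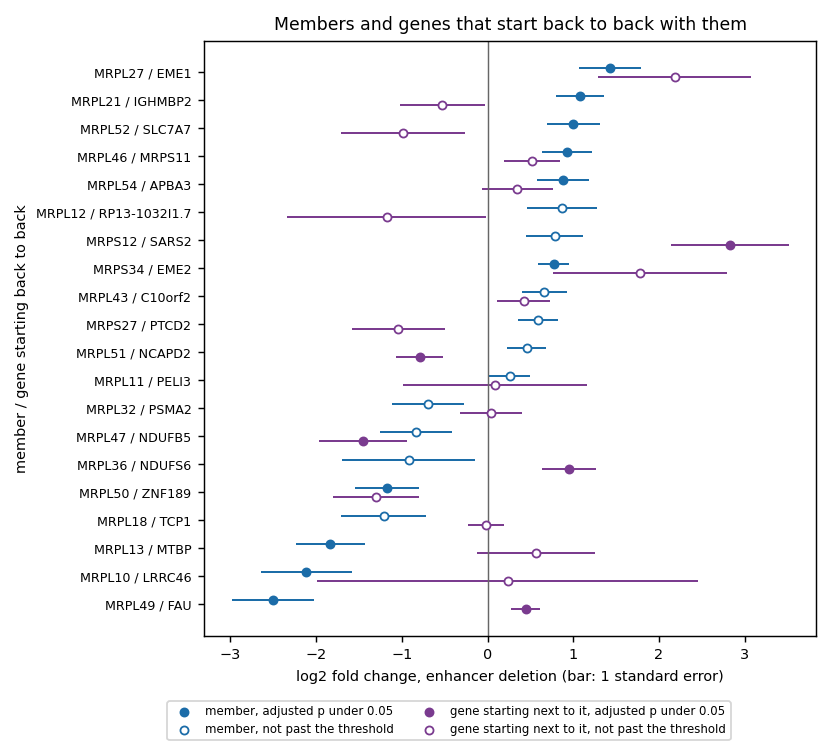
Log2 fold change after enhancer deletion (horizontal axis, bars of 1 SE) of mitochondrial ribosomal protein genes and of the genes that start back to back with them, filled where the adjusted p was under 0.05. MRPL49 and FAU are the only pair with both points filled, and they lie on opposite sides of 0.

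Other genes of mitochondrial translation were called in both directions after deletion, and their counts stand beside the background of 15.8% of all rows. Of 8 ribosome subunits with other symbols, 3 were called (37.5%): in the authors' deposited table AURKAIP1 had 1.06 (SE 0.30, adjusted p = 0.00674), GADD45GIP1 had 0.88 (SE 0.28, adjusted p = 0.0163) and DAP3, the GTP-binding protein of the small subunit, had -0.84 (SE 0.25, adjusted p = 0.0102). Of 15 translation factors tested, 3 were called (20%). TSFM, the exchange factor of the elongation factor TUFM, had -2.58 (SE 0.61, adjusted p = 0.00105), GFM2, which splits ribosomes after termination, had -2.39 (SE 0.65, adjusted p = 0.00496) and TACO1, an activator of MT-CO1 translation, had 0.90 (SE 0.33, adjusted p = 0.0401) in the authors' deposited table. Of 26 assembly factors, 1 was called (3.85%), MPV17L2 (-2.17, SE 0.80, adjusted p = 0.0454 in the authors' deposited table). Of 18 genes of mitochondrial transcription and mRNA handling, 4 were called (22.2%). ELAC2 and HSD17B10, which process mitochondrial transfer RNAs, were higher (1.06, SE 0.34 and 1.01, SE 0.26 in the authors' deposited table). LRPPRC, which stabilises mitochondrial mRNAs, and ESRRA, an estrogen-related nuclear receptor, were lower (-0.91, SE 0.30 and -2.17, SE 0.75 in the authors' deposited table). With the GC trend removed none of the higher genes of these lists was still called: AURKAIP1 had 0.47, GADD45GIP1 0.52, TACO1 0.53, ELAC2 0.73 and HSD17B10 0.63, with adjusted p-values from 0.0892 for HSD17B10 to 0.315 for AURKAIP1. The lower genes DAP3, TSFM, GFM2, MPV17L2, LRPPRC and ESRRA were still called. Medians of these 4 lists lay between -0.02 and 0.10, beside 0.0049 over all rows. In the siRNA arm none of the genes on these lists was called by the authors' DESeq2 Wald test, and 2, both translation factors, had an unadjusted p under 0.05.

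Among the 13 mRNAs of mitochondrial DNA, which this ribosome translates, 2 were called after deletion (15.4%, near the 15.8% of all rows), both higher: MT-CO1 (0.53, SE 0.20, adjusted p = 0.0471) and MT-ATP6 (0.81, SE 0.29, adjusted p = 0.0408) in the authors' deposited table. Their median was 0.41, and under siRNA it was -0.07 with 0 called by the authors' DESeq2 Wald test and 0 at an unadjusted p under 0.05. Of 84 cytosolic ribosomal protein genes tested after deletion, 19 were higher and 5 lower (28.6%); their median was 0.05 and their interquartile range 0.98, beside 0.10 and 1.39 for the mitochondrial ones. The mitochondrial set had 14 higher and 11 lower. With the GC trend removed the counts were 8 higher and 5 lower for the cytosolic set and 6 higher and 11 lower for the mitochondrial one. The difference between these sets was not tested.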

How the data were processed

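Each arm has 1 deposited table, which holds the authors' comparison and no column for any one library. Reads were assigned to genes with featureCounts and tested with DESeq2 by the authors, as the file names and headers record. The authors' deposited tables hold a mean normalised count, a log2 fold change and its standard error, the Wald statistic (a deposited score), and p-values before and after adjustment. The submitters' processing notes name hg19 and edgeR 3.24.3 with no role. The aligner, annotation, filters and counting strand are not given in the sources used here. Libraries were made with a QuantSeq FWD 3′ kit, per the labels' protocols, so a count is not scaled by transcript length, and genes that overlap another gene are uncertain. The deposited statistic equalled fold change over standard error, and the deposited adjusted p-value a Benjamini-Hochberg adjustment over the rows, to within rounding; 5 rows of the deletion table had no p-value.

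From these values 95% intervals (normal), implied group means and the difference between the arms were computed in Python 3.11.15 (pandas 2.3.3, scipy 1.17.1). The difference between arms and the GC fit were tried on simulated data with normal errors of the deposited size. The Wald statistics after deletion had a robust standard deviation of 1.88, so that simulation cannot show how many calls are false here. GC content, gene positions and neighbours came from GENCODE release 29 on GRCh38, another build than hg19, matched by gene ID for 69 members and by symbol for 2 (MRPL45 and MRPS21). The GC trend was a lowess fit of span 0.3 (statsmodels 0.14.6). Promoter windows of 300 bases came from RefSeq.

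Genes named are the called ones, the 5 highest and 5 lowest by Wald statistic in each arm, those with a known place or role, those with a standard error over 2 times that of rows with a like mean, and the called genes of the pathway lists. Other genes named (MRPL1, MRPL18, MRPL35, MRPS5, MRPS27, those overlapping a member, and the neighbours) were picked once values had been seen. The members and lists were chosen with earlier results of these data known. The alternatives were a t distribution, a rescaled statistic, GC correction, filters on the mean, other thresholds, adjustment over common rows, centring and, added after seeing the data, leaving out noisy rows.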

Additional observations from a re-analysis of the deposited data

Results flagged for a closer look

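In the test of the difference between the arms, 24 of the 71 genes passed an adjusted p of 0.05 (normal reference, Benjamini-Hochberg over all genes in both tables). The log2 fold change under siRNA minus that after deletion was above 0 for the genes that were lower after deletion: 3.16 for MRPL34, 2.52 for MRPL49, 2.08 for MRPS36, 1.99 for MRPL10, 1.80 for MRPL13, 1.73 for MRPS14, 1.64 for MRPL42, 1.59 for MRPL45, 1.54 for MRPS22, 1.16 for MRPL50 and 1.12 for MRPL17. It was below 0 for 13 others: -1.74 for MRPL55, -1.31 for MRPS26, -1.28 for MRPL27, -1.19 for MRPS18A, -1.12 for MRPL41, -1.12 for MRPL21, -1.04 for MRPL46, -1.02 for MRPL52, -1.02 for MRPL24, -0.97 for MRPL37, -0.84 for MRPS10, -0.77 for MRPS2 and -0.66 for MRPS34. Under siRNA none of these genes was called by the authors' DESeq2 Wald test. The arms differ in the agent, its delivery, the time of collection and the control, so these parts of the design cannot be told apart.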

How the results depend on the processing

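No paired analysis was possible because the deposited tables hold no value per library, and for the same reason no replicate could be left out. Reading the Wald statistic against a t distribution gave 0 called members in the deletion arm and 0 in the difference between the arms, and dividing it by its robust standard deviation gave 0 and 0. Removing the GC trend gave 17 in the deletion arm (6 higher, 11 lower, 14 of them among the 25 called before) and 13 in the difference. The backgrounds over all rows were 12.1% and 11.2%. An adjusted p threshold of 0.1 gave 1 called member under siRNA, MRPL23, beside a background of 4.59%. Other counts in the deletion arm follow, each with its background over all rows. They were 25 with a mean of at least 10 (17.1%) and 26 with at least 30 (20.1%). An adjusted p under 0.1 gave 31 (22.9%), and a log2 fold change of at least 1 gave 18 (11.3%). The counts were 25 over common rows (17.1%), 24 after centring (15.1%) and 22 without noisy rows (14.4%). The large subunit's deletion median went from -0.14 to 0.14 without noisy rows, and the small subunit's from 0.45 to 0.46; under the other settings the deletion medians kept their sign. Among the genes named by the rule, signs changed once the GC trend was removed for values that were not called: the difference for MRPL15 (-0.094) and MRPL23 (0.33), the siRNA value for MRPL50 (0.0019), MRPL54 (-0.0016) and MRPS2 (-0.012), and the deletion value for MRPS33 (0.038). The cause was not tested. Depth per library is unknown.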

Other observations

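The 7-base word GTAACAA was found in the longest annotated 3′ UTR of 3 of the 71 genes (4.23%), MRPL35, MRPL42 and MRPL46, against 10.3% of the genes in the siRNA table that have one. The median 3′ UTR was 511 bases for the 71 genes and 1443 bases for the genes of that table. Their siRNA log2 fold changes in the authors' deposited table were -0.08, 0.11 and -0.11, and none was called.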
